A study of Mus musculus with 4 samples.

Results

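Short early islands are stretches of 100 to 500 kb that replicated early in S-phase in the population-based profile of diploid F121-9 mouse embryonic stem cells (mESCs) while the chromatin on both sides replicated late. They were picked from the replication timing (RT) values of the 19 autosomes. An island was a maximal run of 2 to 10 neighboring 50 kb bins with RT above 0, with at least 1 bin at RT 0.5 or higher, and with a bin at RT -1 or lower within 10 bins on each side and no missing bin between. This rule gave 145 islands holding 1003 bins, out of 955 runs of early bins and 47928 autosomal bins (51427 bins were deposited in all). Bins with RT above 0 made up 42.1% of the autosomal bins, and island bins made up 4.98% of these early bins and 2.09% of all autosomal bins.

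RT was measured by Repli-seq, in which cells are labeled with BrdU and sorted by DNA content, and the newly made DNA of each sorted fraction is sequenced. There were 4 libraries, an early S fraction and a late S fraction with 2 replicates each, all from the same hybrid cas/129 ESC line grown in N2B27 medium with 2i and LIF. No treatment or genotype differed between the libraries. Each bin has 1 deposited value, the log2 ratio of early over late reads, and no value per library was analysed, so RT has no replicate error here and the depth behind it is unknown. RT chose the islands, so RT values describe them and were not tested. What the rule did not use, such as base composition and gene starts, came from the C57BL/6J reference assembly GRCm38.p6 and GENCODE vM21 and not from the genomes of these hybrid cells. Islands and neighboring bins are not replicates, and intervals are exact binomial intervals of shares or order-statistic intervals of medians at the 95% level, which cover the counting of islands or bins and not the error of RT.

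Mammalian chromosomes replicate as domains. Large segments with near constant timing, called constant timing regions (CTRs), alternate with timing transition regions (TTRs) in which RT changes steadily along the DNA. In most mammalian cells, early replication goes with gene-rich, GC-rich and transcribed chromatin in the nuclear interior, and late replication with gene-poor, AT-rich chromatin near the nuclear lamina. A short early island in late chromatin reads in such a profile as a peak with a change in RT on each side.

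Promoter sequences from near the tops of islands come first, because protein-coding gene starts and CpG-dense stretches had their highest mean in the highest bins. The 4 promoters are those of the 4 islands with the largest contrast, the highest RT of an island minus the higher of the lowest RT on its left and right within 10 bins. For each island the annotated gene start closest to the center of its highest bin that also had a RefSeq promoter within 1000 bases is shown, which lay in the highest bin for Ostf1 and outside it, 34.5 to 74.8 kb from its center, for the other 3. Each promoter runs from 250 bases before the start to 50 bases after it on the strand of the gene, from RefSeq on GRCm38.p6, with every CpG in capitals. Slc25a3, the mitochondrial phosphate carrier, lies at chr10:91123918-91124217 on the minus strand in a bin with RT 3.12. Mcm5, a subunit of the helicase that is loaded at replication origins, lies at chr8:75109259-75109558 on the plus strand in a bin with RT 2.62. Ptp4a1, a protein tyrosine phosphatase, lies at chr1:30949706-30950005 on the minus strand in a bin with RT 2.03. Ostf1 lies at chr19:18631764-18632063 on the minus strand in the highest bin of its island, with RT 2.66.
Slc25a3: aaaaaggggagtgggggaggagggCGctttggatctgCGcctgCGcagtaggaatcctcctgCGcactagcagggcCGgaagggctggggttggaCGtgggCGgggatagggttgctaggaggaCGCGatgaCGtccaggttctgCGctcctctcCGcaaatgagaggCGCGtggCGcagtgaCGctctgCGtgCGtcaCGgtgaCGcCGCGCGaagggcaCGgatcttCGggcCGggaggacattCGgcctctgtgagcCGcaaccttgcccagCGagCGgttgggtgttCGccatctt
Mcm5: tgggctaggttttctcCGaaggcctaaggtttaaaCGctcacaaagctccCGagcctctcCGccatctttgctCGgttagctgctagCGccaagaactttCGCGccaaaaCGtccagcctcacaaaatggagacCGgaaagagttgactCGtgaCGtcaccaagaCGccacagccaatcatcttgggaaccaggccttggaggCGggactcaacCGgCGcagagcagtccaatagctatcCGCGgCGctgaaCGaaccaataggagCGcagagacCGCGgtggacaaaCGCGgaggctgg
Ptp4a1: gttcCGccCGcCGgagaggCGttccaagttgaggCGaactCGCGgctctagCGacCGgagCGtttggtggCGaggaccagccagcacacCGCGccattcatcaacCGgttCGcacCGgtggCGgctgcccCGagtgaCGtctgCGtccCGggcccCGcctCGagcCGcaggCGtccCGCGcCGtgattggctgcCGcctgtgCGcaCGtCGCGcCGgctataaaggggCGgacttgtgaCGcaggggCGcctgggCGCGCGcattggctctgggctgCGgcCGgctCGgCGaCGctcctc
Ostf1: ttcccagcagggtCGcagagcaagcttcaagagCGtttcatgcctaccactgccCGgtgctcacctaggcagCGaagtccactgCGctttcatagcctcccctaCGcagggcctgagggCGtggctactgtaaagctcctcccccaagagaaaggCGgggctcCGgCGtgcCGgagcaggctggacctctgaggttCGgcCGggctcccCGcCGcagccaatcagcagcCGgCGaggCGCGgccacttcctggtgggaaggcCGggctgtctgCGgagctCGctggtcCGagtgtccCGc
The 4 promoters held 31, 25, 45 and 24 CpG in the order printed. Of all 13513 autosomal promoters matched in this way, 15.9%, 28.7%, 2.76% and 31.3% held at least as many. The letters TATAAA, searched on both strands, were found in the promoter of Ptp4a1 and not in the other 3, and 11.2% of all promoters held them. CCGGAAG, likewise on both strands, was found in that of Slc25a3 and not in the other 3, and 13.6% of all promoters held it.

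The next sequences are from the 2 islands of largest contrast, of the 7 islands in all, that hold no start of a protein-coding gene, and are shown for comparison. Each is the 300-base window with the most CpG in the highest bin of its island, on the plus strand of GRCm38.p6. The first is at chr12:114113175-114113474, among the variable segments of the immunoglobulin heavy chain locus. The second is at chr5:131585653-131585952, in an island whose annotated gene starts are all of other types. This island is not free of protein-coding genes, as those that start outside it covered 90.7% of its length.
chr12 island: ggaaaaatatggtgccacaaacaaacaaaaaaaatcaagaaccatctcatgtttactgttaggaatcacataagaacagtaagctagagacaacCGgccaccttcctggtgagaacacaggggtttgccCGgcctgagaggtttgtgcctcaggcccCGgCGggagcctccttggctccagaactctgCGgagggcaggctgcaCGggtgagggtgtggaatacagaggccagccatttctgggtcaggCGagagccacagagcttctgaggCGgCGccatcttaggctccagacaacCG
chr5 island: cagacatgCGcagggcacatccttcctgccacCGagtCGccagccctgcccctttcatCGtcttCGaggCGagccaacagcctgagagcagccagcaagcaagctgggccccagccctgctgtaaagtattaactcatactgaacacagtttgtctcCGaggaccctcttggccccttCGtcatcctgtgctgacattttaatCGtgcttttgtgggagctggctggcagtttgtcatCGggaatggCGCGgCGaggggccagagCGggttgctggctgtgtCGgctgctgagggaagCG
The chr12 window held 10 CpG and the chr5 window 16, and 65.2% and 52.4% of all promoters held at least as many. These were the densest windows of their bins, whereas the promoters were placed by their gene starts.

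The length of the islands spread over the whole range that the rule allows. There were 2 islands of 100 kb, 7 of 150 kb, 15 of 200 kb, 18 each of 250 and 300 kb, 22 of 350 kb, 21 of 400 kb, 22 of 450 kb and 20 of 500 kb, with a median of 350 kb (interval 350 to 400 kb). The highest RT of an island ran from 0.51 to 3.14 with a median of 1.33 and quartiles of 0.85 and 1.83. It was at or above 1 in 88 islands, at or above 2 in 28 and at or above 3 in 3. The contrast had a median of 3.58 on the log2 scale and ran from 1.75 to 6.87.

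**Figure D1:**
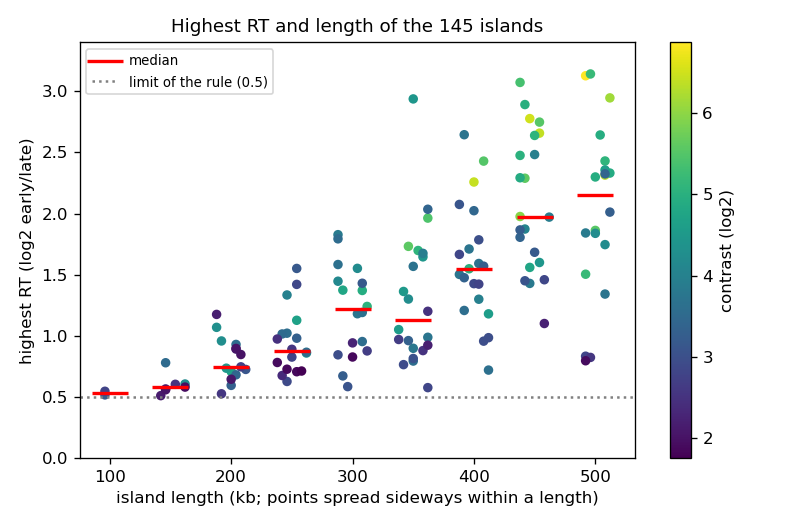
Highest RT (log2 early over late, y axis) against length (kb, x axis; points are spread sideways within a length) for the 145 islands, colored by contrast, with red lines at the median of each length and a dotted line at the 0.5 that the rule requires. Longer islands reached higher RT, and the islands of 100 and 150 kb stayed below RT 0.8.

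Longer islands reached higher values, with Spearman's rho of 0.74 over the 145 islands, both read from the same profile. Highest RT was only weakly related to the GC content of the island (rho 0.18) and to its density of protein-coding gene starts (rho 0.23). The depth of the late chromatin on the left was unrelated to that on the right (rho 0.03), and in 76 of 145 islands the lowest values of the sides differed by more than 1. The median lowest RT was -2.78 on the left and -2.90 on the right. Both sides reached -2 in 90 islands and -3 in 29.

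Late bins lay close to the islands on both sides by the rule, which requires one within 10 bins. Bins at RT -1 or lower were reached a median of 3 bins away on each side. The highest bin lay within 50 kb of the middle of the island in 120 of 145 islands and at its edge in 4. It exceeded the next highest bin by a median of 0.12. The noise of a bin was estimated from the median absolute difference between each island bin and the mean of its neighbors. Scaled to the SD of a single bin, it was 0.14, and in 65 islands the highest bin stood out by more than this. In the others the top is not resolved to a single bin. In these 65 islands it may not be resolved either. The gap also carries the noise of the next highest bin, and the highest bin was picked for its value. The count therefore does not show in how many islands the top is resolved, and the highest bin is the highest as deposited.

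The label of short early islands in late chromatin did not hold equally for all members. On both sides, 101 of 145 islands had at least 5 late bins (RT -1 or lower) among the 10 closest, but 20 had fewer than 3 on a side and 10 had only 1. The count stops at a missing bin, so a low count can also reflect bins without a value. This was so on the left of chr1:143500001-143900000, where the bin next to the island had RT -1.02 and the one beyond it had no value. In 5 islands a single bin parted the island from another early bin. A pair of these, at chr9:34800001-35300000 and chr9:35350001-35650000, lay on both sides of 1 bin with RT -1.75 whose neighbors were at 2.71 and 1.79. The left one of the pair, with the glycosyltransferase gene St3gal4 in its highest bin, had the highest RT of all islands, 3.14, so that this value came from a run that ends at a single discordant bin and not from a separate peak. Where runs were joined over single bins, 142 islands were found, and where each side needed at least 3 late bins, 125. Values of the results below in these sets, chosen after the data were seen, are given in the closing section.

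At the limits of the rule the members grade into their surroundings. The lowest member was chr5:86750001-86900000, with RT 0.13, 0.51 and 0.11 from left to right, which holds the start of Ythdc1, a reader of methylated adenosine in RNA. The run just outside, chr3:20000001-20100000, reached RT 0.498. On the side of length, 23 runs of 11 bins met all other conditions, the one of largest contrast being chr8:43050001-43600000 with a contrast of 6.44, as did 6 runs of 1 bin.

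Islands were isolated from other early chromatin by a median of 750 kb (interval 650 to 850 kb), with a range from 50 to 11600 kb, and 44 of 145 lay within 500 kb of another early bin. They were also spread apart from each other. Of 126 pairs of neighboring islands on a chromosome, 8 lay within 500 kb and 14 within 1 Mb, and the median gap was 8400 kb. Chromosomes 1 and 3 held the most islands, 15 each. Per length, chromosome 13 held the most (10.2 islands per 100 Mb) and chromosome 15 the fewest (2.98 per 100 Mb). On chromosome 3, 10.5% of all early bins were island bins.

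The 10 islands of largest contrast show the shape of a member most clearly. The island at chr10:90850001-91350000 had RT 0.63, 1.44, 2.20, 2.63, 3.02, 3.12, 3.13, 2.43, 1.76 and 0.89 from left to right, between lows of -3.74 and -4.06. Its contrast of 6.87 was the largest of all islands and of the 500 kb islands. Tmpo, which encodes lamina-associated polypeptides of the nuclear envelope, started in the highest bin. Apaf1, the scaffold of the apoptosome, and Ikbip started in the bin at 3.02, and Slc25a3, whose promoter is printed above, in the bin at 3.12. All 4 genes of this island thus started in its 3 highest bins.

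The island at chr8:74850001-75300000 had RT 0.69, 1.44, 2.35, 2.59, 2.78, 2.62, 2.13, 1.63 and 0.56, with a contrast of 6.50. Hmox1, the inducible heme oxygenase, started in the highest bin and Mcm5 in the next to its right. Hmgxb4 and the endosomal sorting gene Tom1 started on the left slope at 2.35 and 2.59, Rasd2 on the right slope at 1.63, and the homeobox gene Isx in the first bin, at 0.69. The GC content of this island was 5.67 points above that of its late flanks, the largest difference among these 10 islands.

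The island at chr1:30700001-31100000 had RT 0.59, 1.49, 2.05, 2.26, 2.03, 1.56, 0.65 and 0.02, with a contrast of 6.42, and lay in the deepest surroundings of the 3, at -4.16 and -4.26. Phf3, a regulator of RNA polymerase II transcription, started in its highest bin, and Ptp4a1 in the next. The annotation gives Ptp4a1 under 2 gene records, so the 586 annotated starts in islands belong to 585 gene symbols.

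The other 7 of these islands had contrasts from 5.54 to 6.41, and each also had a protein-coding gene start in its highest bin. These genes were Ostf1 and the nicotinamide riboside kinase gene Nmrk1 at chr19:18450001-18900000, where Carnmt1 and the magnesium channel gene Trpm6 started 1 and 2 bins further on. At chr7:92500001-93000000 it was Rab30, a small GTPase, beside Pcf11, a factor of transcription termination. At chr12:28450001-28950000 it was Adi1, an enzyme of methionine salvage (RT 2.95), and the bin beside it at 2.82 held Rps7, a protein of the small ribosomal subunit, Rnaseh1, which cuts RNA in RNA-DNA hybrids, and Colec11. At chr14:101450001-101900000 the highest bin held Tbc1d4, a regulator of glucose transporter traffic, and Commd6, at chr6:56550001-57000000 it held Fkbp9, and at chr2:80400001-80750000 it held the nuclear pore gene Nup35 and the phosphatase gene Dusp19. The last of the 10, chr9:26900001-27400000, had Jam3, a junctional adhesion molecule, in its highest bin (RT 1.86) and Ncapd3, a subunit of condensin II, on its left slope (0.97).

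**Figure D2:**
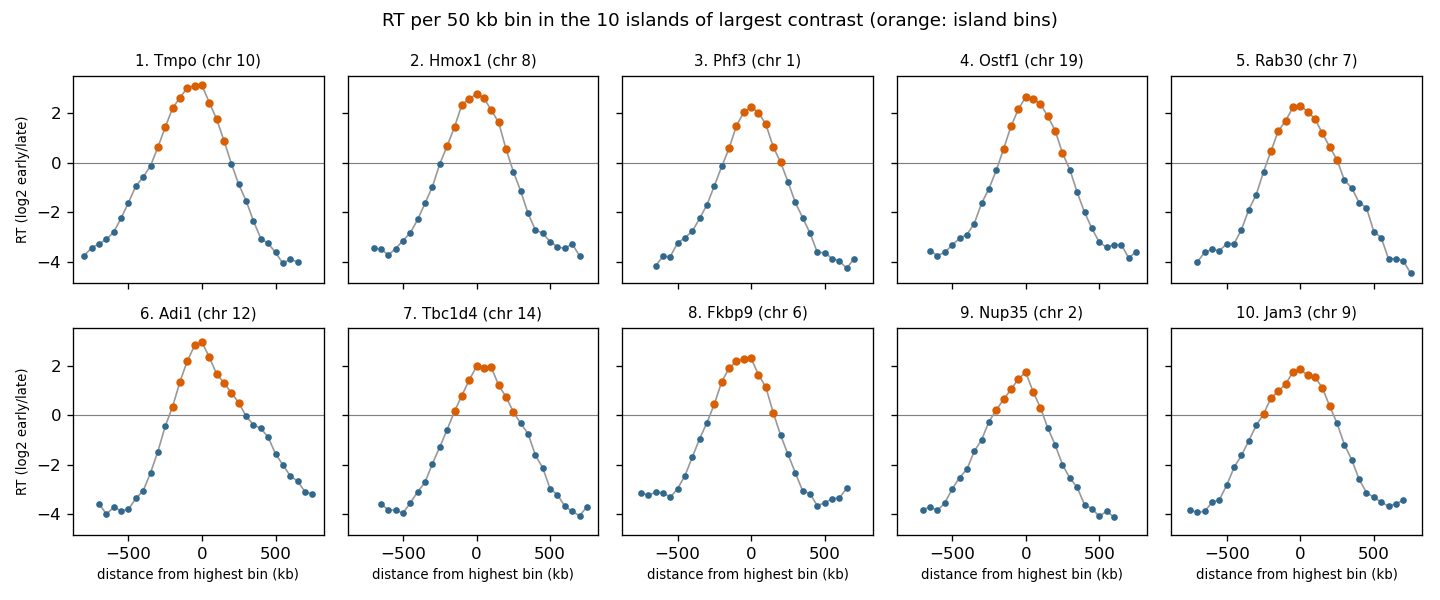
RT (log2 early over late, y axis) of each 50 kb bin against the distance from the highest bin (kb, x axis) for the 10 islands of largest contrast, titled by a gene that starts in the highest bin; island bins are orange and the 10 bins on each side blue. In each island RT falls on both sides of the highest bin to -3.19 or lower within the 10 bins shown.

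Across the 145 islands, the bins around the top held more gene starts and CpG than the bins beside them. GC content rose from a mean of 40.6% 500 kb to the left of the highest bin to 42.7% ± 0.238 (SE, n = 145 islands) in it, and fell to 40.2% 500 kb to its right. Starts of protein-coding genes rose from 0.197 per bin to 0.828 ± 0.0708 (SE, n = 145 islands) and fell to 0.241 at the same places. CpG-dense stretches rose from 0.127 to 0.931 ± 0.106 per bin (SE, n = 145 islands) and fell to 0.124. These stretches were the stricter of 2 sets that were counted in the reference, windows of 500 bases with GC content of at least 55%, a ratio of observed to expected CpG of at least 0.65 and under 50% soft-masked repeat.

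**Figure D3:**
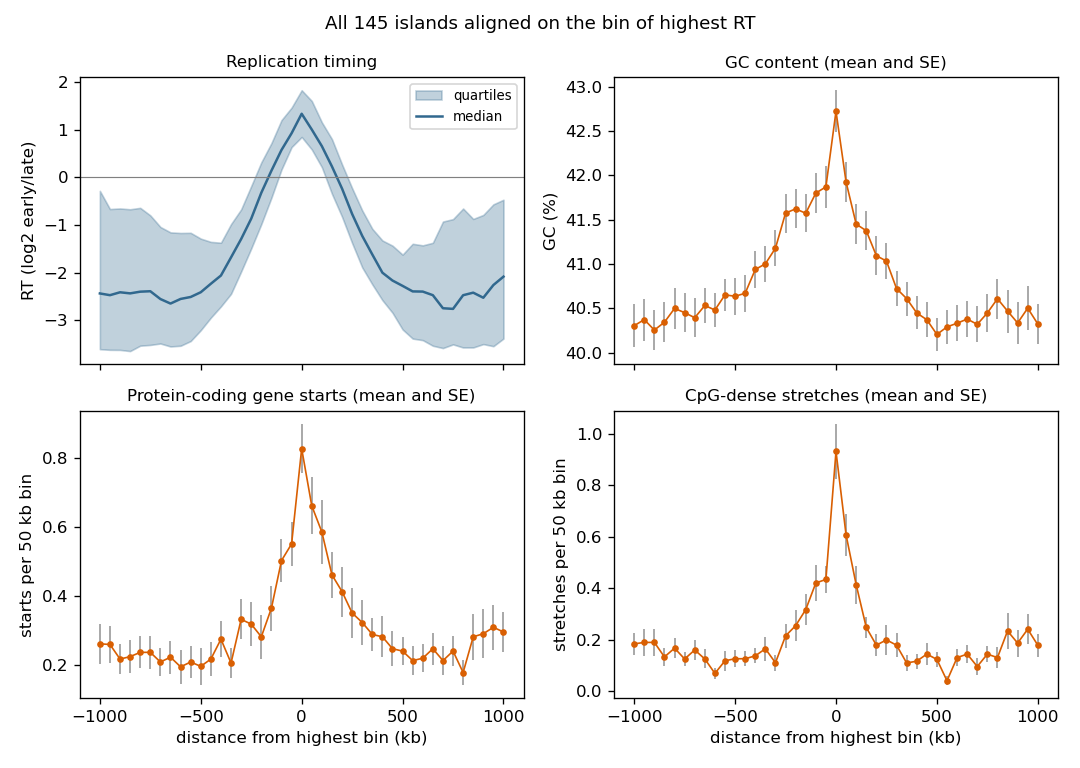
All 145 islands aligned on the bin of highest RT, with distance from that bin in kb on the x axes: RT (log2, median and quartiles over islands), GC content (%), protein-coding gene starts per 50 kb bin and CpG-dense stretches per bin (means with SE over islands). RT chose the islands; the other 3 measures have their highest mean in the same bin, 42.7% GC, 0.828 starts and 0.931 stretches.

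The highest bin differed in its genes from the other bins of the same islands. It held a protein-coding gene start in 90 of 145 islands (62.1%, interval 53.6 to 70.0%), against 322 of the 858 other island bins (37.5%, 34.3 to 40.9%) and a background of 28.3% of all autosomal bins. The bins 50 kb to its left and right held one in 41.4% and 44.1% of islands. A CpG-dense stretch was in 93 of the highest bins (64.1%, 55.8 to 71.9%) and in 287 of the other island bins (33.4%, 30.3 to 36.7%). The share in highest bins was not particular to islands. It was 59.2% (52.6 to 65.6%) in early runs of 11 to 20 bins and 68.2% (62.6 to 73.5%) in longer runs. GC content separated them less, with 42.7% ± 2.86 (SD, n = 145 bins) in the highest bins and 42.0% ± 2.73 (SD, n = 858 bins) in the others. The highest bins of early runs of 11 to 20 bins held a gene start about as often, 143 of 233 (61.4%, 54.8 to 67.7%), with a higher GC content (44.6% ± 2.69, SD, n = 233 bins). Those of early runs longer than 20 bins held one more often, 206 of 296 (69.6%, 64.0 to 74.8%), at 47.2% ± 3.43 GC (SD, n = 296 bins). No test was run between these classes.

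In whole islands, a protein-coding gene start was almost always present. It was found in 138 of 145 islands (95.2%, 90.3 to 98.0%), and 144 held the start of some annotated gene. The number per island had a median of 3 and ran from 0 to 23, with 27 islands holding exactly 1 start and 8 holding at least 10. Length sets this share in part, so windows of equal length were compared. All 22 islands of 7 bins held a protein-coding gene start, against 96.5% of the 2350 windows of 7 bins in early runs longer than 10 bins and 45.0% of the 3449 such windows in late runs. A miRNA gene started in 31 islands, at 0.937 starts per Mb of island bins, close to the 0.857 over all autosomal bins and below other early bins.

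Each island was also set against the bins at RT -1 or lower within 10 bins of it. Protein-coding gene starts were denser in the island than in these flanks in 127 of 145 islands (median 10 against 2.22 per Mb). CpG-dense stretches were denser in 135 islands (median 8 against 1.33 per Mb). GC content was higher in 123 islands, by a median of 1.36 percentage points (interval 1.14 to 1.64). Against only the 3 bins next to the island on each side, it was higher in 114 islands and by 0.783 points. The share of soft-masked repeats was lower in 94 islands, with medians of 31.5% in islands and 33.7% in flanks.

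Set against the rest of the autosomes, island bins lay between other early and late bins. Their median GC content of 41.8% was close to that of all autosomal bins (41.4%), above that of late bins (39.4%) and below that of other early bins (44.8%). Protein-coding gene starts came at 11.7 per Mb, against 15.4 in other early bins, 3.87 in late bins and 8.65 over all bins. Early domains of at least 2 Mb (138 in number) held 18.2 per Mb at a median GC content of 46.1%, and late domains of at least 3 Mb (129) held 2.16 per Mb at 38.1%. The mirrored rule, for short late runs between early chromatin, found 105 valleys. Their bins had a higher GC content than island bins (43.1%), but fewer gene starts (6.86 per Mb) and fewer CpG-dense stretches (3.24 against 10.4 per Mb).

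Within classes of RT, island bins were poorer in GC and held a gene start more often than other autosomal bins. Among bins with RT from 0 to 1, median GC content was 41.6% in the 618 island bins and 43.3% in the 3705 others, while 33.5% (29.8 to 37.4%) and 29.6% (28.1 to 31.1%) of them held a protein-coding gene start. From RT 1 to 2, GC content was 42.3% in 287 island bins and 44.0% in 4181 others, and the shares with a start were 48.8% (42.9 to 54.7%) and 35.8% (34.3 to 37.3%). From RT 2 to 3, GC content was 42.9% in 93 island bins and 44.6% in 5373 others, and the shares were 64.5% (53.9 to 74.2%) and 48.1% (46.7 to 49.4%). The intervals of the shares overlap in the lowest class and not in the other two. They count neighboring bins of 1 island or domain as separate, so this is no test of a difference, and none was run. RT was not equal within the classes, with medians of 0.54, 1.40 and 2.31 in island bins against 0.49, 1.53 and 2.55 in the others, and the part of this in the lower GC content of the upper classes was not tested. CpG-dense stretches depended on their definition. By the stricter one island bins held more, 8.03 against 6.09 per Mb, 12.9 against 8.32 and 18.1 against 13.0 from the lowest class up. By a looser one, with windows of 200 bases, they held fewer, 51.8 against 63.1, 65.1 against 78.7 and 75.7 against 90.7 per Mb. Of the other bins, 78.5% in the lowest class and 96.0% and 98.9% in the classes above lay in early runs longer than 10 bins, so that this comparison sets tops and slopes of short peaks against the edges and interiors of longer domains. Across all 47928 autosomal bins RT and GC content were related with Spearman's rho of 0.75, a description of bins that share 1 profile.

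**Figure D4:**
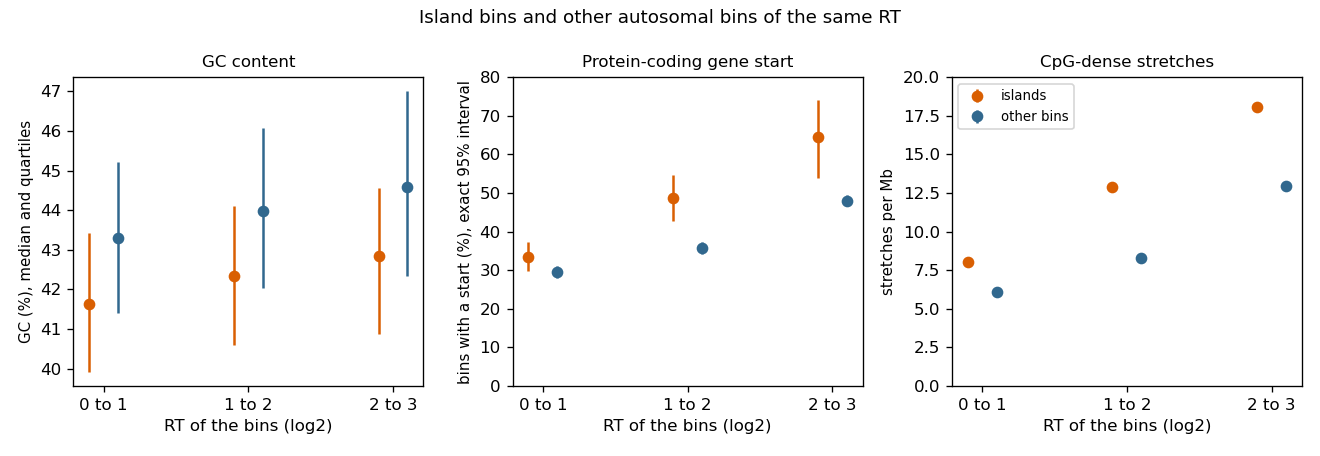
Island bins (orange) and other autosomal bins (blue) of the same class of RT (x axes, log2): GC content (%, median with quartiles), share of bins with a protein-coding gene start (%, with exact 95% intervals) and CpG-dense stretches per Mb by the stricter definition (no interval; the looser definition turns this order). In each of the 3 classes island bins had the lower median GC content and the higher share with a start, 64.5% against 48.1% in the class from 2 to 3.

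The genes of islands had a higher median length than genes elsewhere, with wide overlap. The 585 genes had a median length of 27.0 kb (quartiles 8.81 and 60.1 kb), against 18.5 kb (7.76 and 43.7 kb) for genes starting in other early bins, 13.0 kb for genes starting in late bins and 17.7 kb over all. Of them, 66 ran out of their island and 120 started in the highest bin. Protein-coding genes covered a median of 49.95% of an island. In 2 islands, both of 200 kb, at chr8:108600001-108800000 and chr19:31000001-31200000, the whole island lay within the span of a protein-coding gene.

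The promoters of island genes were mostly CpG-rich, as were those of other early genes. A RefSeq promoter was matched for 360 island genes, with a median of 21 CpG in 300 bases. The median was 19 for the 10168 promoters of other early genes and 5 for the 2985 of late genes. At least 10 CpG were found in 78.3% of island promoters (73.7 to 82.5%), 72.6% of other early promoters (71.7 to 73.4%) and 38.3% of late ones (36.6 to 40.1%). TATAAA was held by 8.33%, 8.41% and 20.9% of the 3 groups, and CCGGAAG by 16.7%, 15.8% and 5.83%.

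Gene lists were counted as a description, over 20710 autosomal protein-coding genes, of which 2.82% started in islands and 25.9% in bins at RT 0 or lower. None of the 40 listed pluripotency regulators started in an island or in a bin at RT 0 or lower. None of the 38 neural regulators started in an island, and 14 started in bins at RT 0 or lower. Of 35 regulators of mesoderm and endoderm, 3 did start in islands. Tal1, a regulator of blood formation, started in the highest bin of its island at RT 1.83. T, which encodes brachyury, a marker of early mesoderm, was at 1.62. Bmp4, a signaling ligand of the early embryo, was at 0.58 in the highest bin of an island of 150 kb, and it was also the only island gene among 34 morphogens and ligands.

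A few genes used by every cell started in islands. Of 75 ribosomal protein genes, 5 started in islands, 68 in other early bins and 2 in bins at RT 0 or lower. The 5 were Rps7 (RT 2.82), Rpl37 (2.30), Rps20 (1.34), Rps12 (1.32) and Rpl15 (1.09). Of 242 genes of other common machinery, 5 started in islands, namely the translation initiation factors Eif2a (2.53) and Eif3h (1.93), the splicing factor Srsf11 (2.15), and the proteasome subunits Psma1 (2.32) and Psma8 (0.79), of which Psma8 is known from testis. The shares in islands were 6.67% and 2.07%, against 2.82% of all genes. Both shares, like those of the next lists, rest on few genes.

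Members of large gene families also started in islands. Of 1086 olfactory receptor genes, 10 started in 3 islands, with RT from 0.14 to 0.98, and 895 in bins at RT 0 or lower. Of 312 vomeronasal receptor genes, 6 started in islands and 277 in bins at RT 0 or lower. Of the genes that started in early bins, 5.24% of olfactory and 17.1% of vomeronasal receptor genes started in islands, against 3.81% of all genes. For zinc finger and solute carrier genes this share was 1.63% and 1.93%. Each of these shares rests on few genes. Of 406 zinc finger genes, 6 started in islands, among them Zfp184 (2.64) and Zfp788 (2.52), and 37 in bins at RT 0 or lower. Of 321 solute carrier genes, 5 started in islands, of which Slc25a3 was the highest at 3.12 and the other 4 were between 0.08 and 0.88.

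The islands with the most gene starts, looked up after these counts were seen, held parts of gene clusters. Of 130 homeobox genes listed by their symbols, a list without Isx and Evx2, 10 started in islands, Lhx9 at RT 0.25 and all 9 Hoxd genes, which pattern the body axis and limbs, in the island at chr2:74500001-74850000. Its bins had RT 0.09, 0.57, 1.31, 2.04, 1.70, 0.93 and 0.31. Evx2 and Hoxd13 to Hoxd9 started in the highest bin, Hoxd8, Hoxd4 and Hoxd3 in the next, and Hoxd1 in the bin at 0.93. The genes of the other 3 Hox clusters started in early bins outside islands and all at higher RT, from 2.72 to 3.09 for 11 Hoxa genes, from 2.39 to 3.46 for 10 Hoxb genes and from 2.67 to 3.08 for 9 Hoxc genes. The Hoxd cluster was thus the only Hox cluster that lay in a short island. This island did not lie in deep late chromatin. The lowest RT was -1.49 on its left and -1.37 on its right, against medians of -2.78 and -2.90 over all islands. Each side had 4 bins at RT -1 or lower among the 10 closest, and an early run of at least 11 bins lay 400 kb away.

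Replication-dependent histone genes of the large cluster on chromosome 13 were split between islands and their surroundings. Of 54 Hist1h genes, 32 started in islands and 22 in bins at RT 0 or lower, with no gene in any other early bin. The island at chr13:21750001-22150000 had RT 0.40, 1.72, 2.46, 2.64, 2.64, 2.02, 0.78 and 0.01 and held 18 of them among its 23 gene starts. The island at chr13:23250001-23600000 had RT 0.42, 1.14, 1.56, 2.12, 2.94, 2.18 and 0.79 and held 14 among its 18, all in its last 2 bins. In neither island did a histone gene start in the highest bin, which held Pom121l2 in the former and the butyrophilin genes Btn1a1 and Btn2a2 in the latter. The 22 genes outside were at RT from -1.94 to -0.23. The left flank of the island with 18 histone genes had only 2 bins at RT -1 or lower, the lowest at -1.08. The island with 14 did not lie in deep late chromatin either. Its lowest RT was -1.51 on the left and -1.94 on the right, against medians of -2.78 and -2.90 over all islands.

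Trace amine receptor genes, chemosensory receptors, were split in the same manner, with 8 of 15 Taar genes at RT 0.59 and 1.15 in the island at chr10:23600001-24000000 and 7 just beyond it, at RT from -0.92 to -0.01. This island also held Rps12 and the vanin genes Vnn1 and Vnn3. The island at chr8:104200001-104650000, with 17 gene starts, held Cklf and 5 Cmtm genes. Its highest bin (1.81) held Dync1li2, a subunit of the dynein motor.

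The 7 islands without a protein-coding gene start had contrasts of 3.29 or lower, apart from the island in the immunoglobulin heavy chain locus, chr12:114050001-114200000. Its 3 bins had RT 0.41, 0.61 and 0.49 between lows of -3.59 and -3.78, a contrast of 4.19, and a GC content of 38.6%. It held 12 of the 183 annotated Ighv segments, pseudogenes included, and the other 171 started in bins with RT from -4.02 to -0.17. It held no CpG-dense stretch by the stricter definition. The island at chr5:131400001-131800000 had RT 0.57, 0.97, 1.45, 1.57, 0.95, 0.56, 0.20 and 0.04, a GC content of 45.8% and 9 starts of genes of other types, among them the antisense gene 2810432F15Rik. Protein-coding genes that start outside this island covered 90.7% of it. The island at chr2:44450001-44600000, with RT 0.16, 0.60 and 0.29, was the only one with no annotated gene start of any kind, and lay 4600 kb from the closest other early bin.

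The shortest islands were near the limit of what the rule can find. The island at chr5:45450001-45550000 had RT 0.52 and 0.35 and held the starts of Qdpr, Clrn2, Lap3 and Med28. The other of 100 kb, with RT 0.47 and 0.55, held those of Lxn and Rarres1.

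The study compared single cells with a deterministic model, in which bins replicate in the order of their population-based RT. In that order, the highest bin of an island came after a median of 30.2% of the autosomal bins (interval 29.0 to 32.4%), the earliest after 10.1% and the latest after 37.4%. With 20% of bins replicated, 16 of 145 islands had a replicated bin. With 25%, 30%, 35% and 40% of bins replicated, the number rose to 33, 71, 119 and 145. Of the 1003 island bins, 42, 117, 260, 529 and 880 were replicated at these stages. Most islands thus appeared in the modeled profile once 25% to 35% of bins had replicated. This order is a rescaling of RT and adds no measurement.

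The study smoothed single-cell copy number with a running median over 15 bins, which is longer than any island. The same filter was put on the population-based profile as a description of what it does to runs of this size. It left a bin with RT above 0 in 67 of 145 islands (46.2%, 37.9 to 54.7%). All 63 islands of 8 to 10 bins kept such a bin, which holds by construction, since 8 bins above 0 are the majority of 15. Of the 82 islands of 2 to 7 bins, which keep one only where other early bins lie within the window, 4 did. The median highest RT fell from 1.33 to -0.04. Running medians over 3, 5 and 9 bins left an early bin in 100%, 98.6% and 83.4% of islands. Single-cell data were not analysed here.

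**Figure D5:**
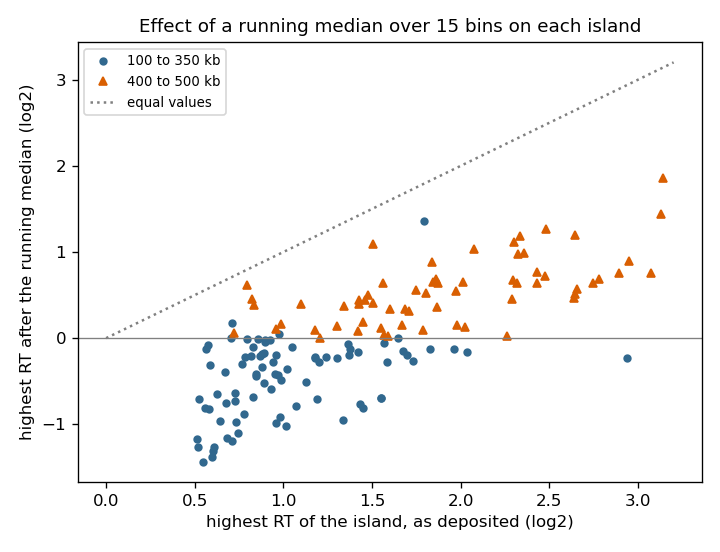
Highest RT of each of the 145 islands after a running median over 15 bins (y axis, log2) against its highest RT as deposited (x axis, log2), for islands of 100 to 350 kb (blue circles) and 400 to 500 kb (orange triangles); the dotted line marks equal values. The 63 longer islands stay above 0 by construction of the filter, and 78 of the 82 shorter ones fell to 0 or below.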

How the data were processed

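For Repli-seq libraries of the early S fraction and the late S fraction (2 each) the authors deposited 1 log2 value per 50 kb bin, the log2 ratio of early over late RPM (reads scaled to library size) as the paper describes it. The submitters' processing notes name Bowtie2, SAMtools, bedtools and mm10. How replicates were combined, and any filter on bins or smoothing, is not given in the sources used here. Smoothing would flatten short peaks. Per-library values were not analysed here, so no test between samples was run.

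Islands were found with a script that was tested on simulated data. Bins were annotated with GRCm38.p6 (the build of mm10) and GENCODE vM21, in Python 3.11.15 with pandas 2.3.3, numpy 2.4.6 and scipy 1.17.1. The looser set of CpG-dense stretches used windows of 200 bases, 50% GC and a ratio of 0.6. The 10 islands of largest contrast, the extremes of length and RT and the 3 islands of largest contrast without a protein-coding gene start were named. Up to 6 genes were named for each, and every listed gene that starts in an island. The islands and gene lists were chosen with earlier results of these data known. Alternatives changed each limit of the rule, the smoothing and the annotation. The result of 1 gene list and some genes are not reported here.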

Additional observations from a re-analysis of the deposited data

Results flagged for a closer look

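Chromosome X was kept out of the rule, which takes the autosomes. The same rule found 12 islands there, and they stand here as data outside the main set. Their highest RT ran from 0.66 to 2.35 with a median of 0.98, their median GC content was 40.5%, and 10 of 12 held a protein-coding gene start. Per length this came to 7.44 islands per 100 Mb, within the range of the autosomes. Fmr1, the gene of fragile X syndrome, started at RT 1.08 in an island whose highest bin, at 1.63, held Fmr1nb. Among its single diploid hybrid cells, the study reports loss of X as the most frequent karyotype aberration or aneuploidy. The copy number of X was not examined here, and its part in these values was not tested.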

How the results depend on the processing

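Of 69 alternative values, 49 stayed within the 95% interval of the reported value (for the number of islands, within 1.5 times of it), 20 moved out of it and 0 changed direction. The number of islands was 88 with a highest bin at RT 1 or above, 90 with both sides reaching RT -2, 60 with runs of up to 6 bins and 291 with runs of up to 20, by construction of these limits. The share of islands with a gene start in the highest bin was 70.5%, 72.2% and 51.7% under the first 3 of these and 75.2% with all annotated genes. The share with a protein-coding gene start anywhere was 98.9% with sides at -2, 90.0% with up to 6 bins and 99.3% with all annotated genes. With up to 20 bins the median GC content was 42.4%, its difference from late flanks 1.85 points and the median of looser CpG-dense stretches 58.0 per Mb, against 45.7 in the islands as described. The difference was 0.783 points against 3 bins on each side, and the stretches 8 per Mb by the stricter definition. Running medians of 3, 5 and 9 bins kept 100%, 98.6% and 83.4% of islands. The distance to an early run of at least 11 bins was 1450 kb. Apart from the limits themselves, the cause was not tested. In 2 sets chosen after seeing the data, with runs joined over single bins and with 3 late bins on each side, all 12 values stayed, with gene starts in the highest bin at 62.0% and 63.2%. No paired analysis was possible because the values analysed here are 1 per bin, a ratio of both fractions with no column per replicate, and no replicate could be left out for the same reason. Depth is unknown.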
